A study of Rattus norvegicus with 2 samples.

Results

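Fkbp5, Zbtb16, Tsc22d3, Sgk1, Klf9, Ddit4 and Errfi1 are genes whose transcription rises when glucocorticoids act on a cell. They were found on 2 arrays of the nucleus of the solitary tract (NTS) by matching the transcript accession of every probe outside the controls to the rat RefSeq genes of those names. All 7 genes were found, with 9 probes, among 16581 genes with a named probe, and all 9 probes were well above background on both arrays. Fkbp5, Zbtb16, Klf9, Tsc22d3 and Sgk1 had 1 probe each, and Ddit4 and Errfi1 had 2 each.

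The arrays compared female with male spontaneously hypertensive rats (SHR), an inbred strain that develops high blood pressure. The female group was RNA of 5 SHR females aged 9 weeks and the male group RNA of 5 SHR males of the same age, pooled by sex at 100 ng of total RNA per rat, so each sex is 1 array. The labels name no transgene, drug or other treatment in either group, and all rats fed and drank freely, were killed by ether inhalation and decapitation, and had the NTS taken from a stretch that runs 1.0 mm forward and 0.5 mm back from the calamus scriptorius, a landmark of the dorsal medulla. With 1 pool per sex the variation between animals is unknown, so no test was made and every difference below compares 2 pools.

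Corticosterone, the main glucocorticoid of the rat, enters cells and binds the glucocorticoid receptor, which then leaves its Hsp90 chaperone complex, moves to the nucleus and binds DNA at inverted repeats of the hexamer AGAACA. The genes it induces feed back on the receptor, restrain inflammation and growth factor signals, and change ion transport and metabolism. The NTS, in the dorsal medulla, receives visceral and cardiovascular afferents, expresses the receptor, and sends catecholamine fibres to the hypothalamic neurons that start the release of corticosterone.

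Of each array's 58717 spots outside the controls, 82.3% were well above background in the female pool and 80.1% in the male pool, and none was saturated. Scaled signal means a value set so that an array's 75th percentile is 100, and differences are female minus male on the log2 scale. A probe has its own binding strength, so a scaled signal is compared between arrays and not between probes. The Y-linked gene Eif2s3y reached 22.4 in males, while its spot did not stand well above background in females. Of the 2 probes of Ddx3y, also Y-linked, 1 behaved likewise, with 6.94 in males, and the other was well above background in both pools, at 10.2 in females and 24.3 in males. Of the dorsal medulla markers looked for, 6 were measured. Of these, 4 were higher and 2 lower in the female pool, where 55.5% of all measured genes were higher, and their median was 0.03. The brightest of the 6 markers, the catecholamine synthesis genes Th and Dbh, were the 2 lower ones, at -0.18 and -0.07.

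**Figure D1:**
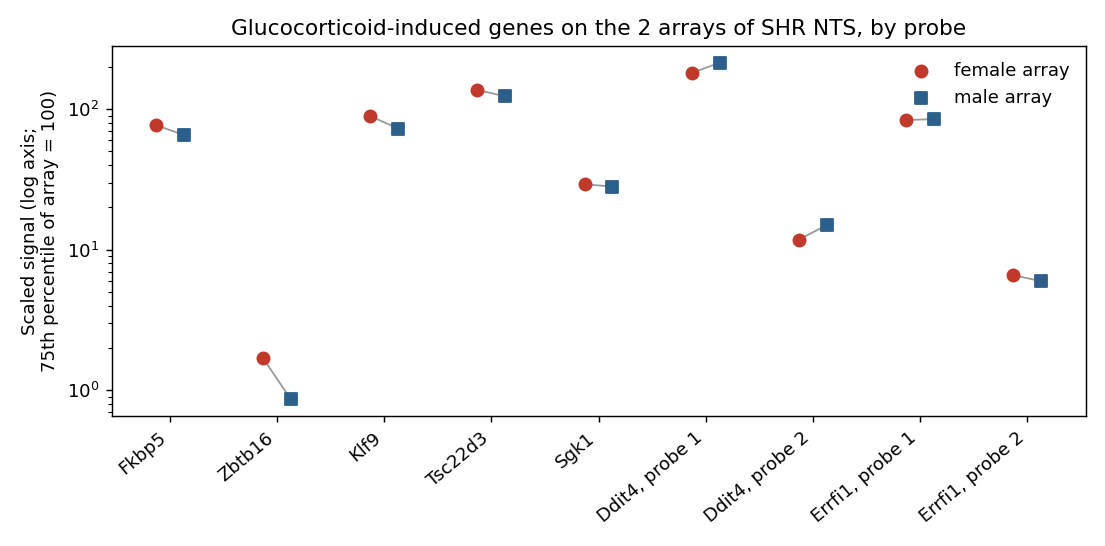
Scaled signal (log axis) of each of the 9 probes in the female pool (red circles) and the male pool (blue squares), 1 value per array and probe, with a line joining the values of a probe. The line of Zbtb16 is the steepest, with 1.70 in females and 0.863 in males, and both Ddit4 probes are lower in the female pool.

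Of the 7 genes, 6 were higher in the female pool and Ddit4 was lower there. The median difference of the 7 was 0.15, against 0.02 over all 13433 measured genes, of which 55.5% were higher in the female pool. A gene counted as past 1.5-fold in 1 case, Zbtb16, where 2.3% of all measured genes were past it in either direction, 1.5% on the female side and 0.804% on the male side. At 1.2-fold, Zbtb16 and Klf9 were past the threshold on the female side and Ddit4 on the male side, where 11.8% of all measured genes were past it in either direction. In a dissected tissue, more cells of a type and more RNA per cell cannot be told apart, which holds for every difference below.

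Each member probe is a single spot, so its technical error was taken from elsewhere in the same files. The scanner software's own error model gave a standard error of about 0.20 for the difference of most of these probes and 0.25 for Zbtb16. For probes printed at least 8 times on the array, the spot SDs within each array were combined as if independent into the SD of a single-spot difference. The median of that SD was 0.06 in the brightest quartile of the signal range (1126 probes) and 0.08 in the third. It was 0.11 in the second and 0.21 in the dimmest (38 probes). These errors cover spots and scanning but not animals, pools or labelling.

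**Figure D2:**
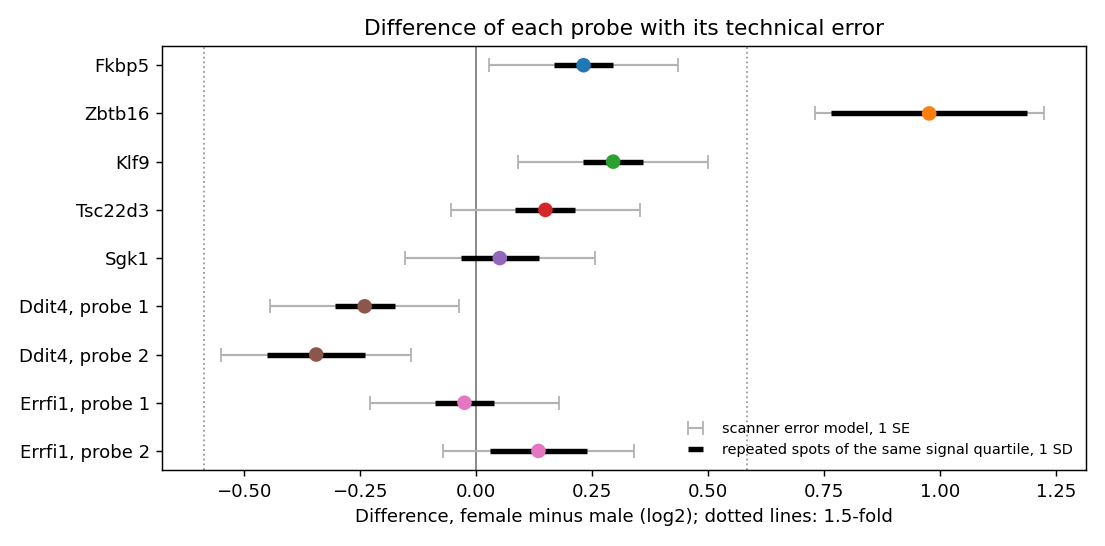
Difference, female minus male on the log2 scale, of each of the 9 probes, with 1 standard error of the scanner's error model (grey) and 1 SD of repeated spots in the probe's quartile of the signal range (black). Dotted lines mark 1.5-fold. Zbtb16 lies past the upper line at 0.98, Klf9 at 0.30 and Fkbp5 at 0.23 lie above 0, both Ddit4 probes lie below 0, and Sgk1 and Errfi1 lie near it.

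Fkbp5 encodes FKBP51, a co-chaperone of Hsp90 that lowers the hormone affinity of the glucocorticoid receptor and so closes a negative feedback loop within the cell. Its probe had a scaled signal of 77.0 in the female pool and 65.5 in the male pool. The female value was 1.17-fold higher, a difference of 0.23 ± 0.20 (SE of the error model) and 3.60 times the single-spot SD. In the brightest quartile of measured genes, where Fkbp5 lies, 2.8% of genes were at least as far from 0.

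Zbtb16 encodes PLZF, a zinc finger transcription factor that recruits repressor complexes. It was the 1 gene past 1.5-fold, and its probe lay in the dimmest quartile of the signal range. The probe read 1.70 in the female pool and 0.863 in the male pool, a 1.97-fold difference of 0.98 ± 0.25 (SE of the error model), or 4.62 times the single-spot SD. Before any correction the spot read 80.5 intensity units in the female pool over a local background of 40, and 56 in the male pool over a background of 41. The male spot thus stood 1.37 times above its surroundings and the female spot 2.01 times, so the size of the fold rests on how the background is removed. With normexp correction of the median spot signal the difference was 0.341, and with no background correction 0.488, both below 1.5-fold. In the dimmest quartile of measured genes 7% were past 1.5-fold in either direction, and 1.76% were at least as far from 0 as Zbtb16.

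Klf9 encodes a Krüppel-like zinc finger transcription factor that in neurons responds to both corticosterone and thyroid hormone. The probe read 89.3 in the female pool against 72.7 in the male pool. That was a 1.23-fold difference of 0.30 ± 0.20 (SE of the error model) and 4.59 times the single-spot SD, the largest such multiple after that of Zbtb16. Of all genes in the brightest quartile, where Klf9 lies, 1.55% were at least as far from 0.

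Tsc22d3 encodes GILZ, a leucine zipper protein that binds NF-κB and AP-1 and carries part of the anti-inflammatory action of glucocorticoids. Its X-linked transcript gave 137 in the female pool and 123 in the male pool. The 1.11-fold difference of 0.15 was 2.33 times the single-spot SD but smaller than the 0.20 of the error model, and 9.2% of genes in the brightest quartile were at least as far from 0.

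Sgk1 encodes a serum- and glucocorticoid-regulated kinase that raises the surface number of epithelial sodium channels and also responds to aldosterone and to cell volume. The probe read 29.2 in the female pool and 28.1 in the male pool, a 1.04-fold difference of 0.05 that was less than the single-spot SD of 0.08. In its quartile of the signal range 59.2% of genes were at least as far from 0.

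Ddit4 encodes REDD1, which acts through the TSC complex to lower mTORC1 activity, and it is induced by hypoxia and energy stress as well as by glucocorticoids. It was the 1 member lower in the female pool, and both probes had that direction. The first probe read 181 in the female pool and 214 in the male pool, and the second 11.8 and 15.0. The differences were -0.24 and -0.34, each ± 0.20 (SE of the error model), or 3.71 and 3.27 times their single-spot SD. They were only 1.17 and 1.68 times the SE of the error model. The mean of both probes was 1.22-fold lower in the female pool. That mean falls in the third quartile of the signal range, while the probes lie in the brightest and the second. In the third quartile 2.86% of genes were at least as far from 0.

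Errfi1 encodes MIG6, an inhibitor of the epidermal growth factor receptor kinase. Its probes went opposite ways and neither was far from 0. The first read 83.5 in the female pool and 85.0 in the male pool, a difference of -0.02. The second read 6.58 in the female pool against 5.99 in the male pool, a difference of 0.14, or 1.28 times its single-spot SD. The mean of both was 0.06 and falls in the third quartile of the signal range, while the probes lie in the brightest and the second. In the third quartile 56.7% of genes were at least as far from 0.

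**Figure D3:**
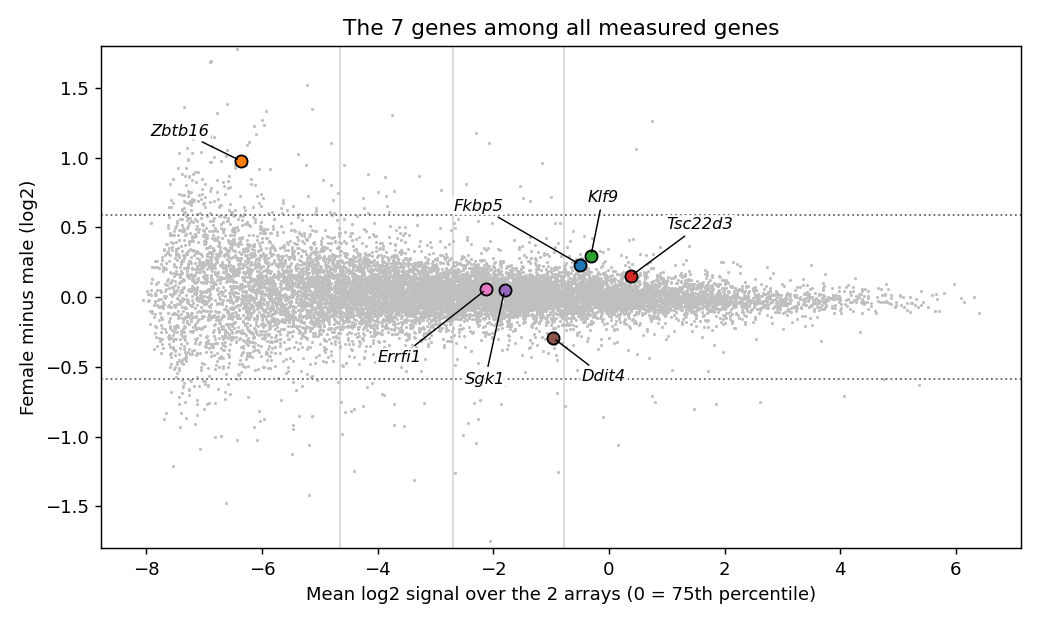
Difference, female minus male on the log2 scale, against the mean log2 signal of both arrays for the measured genes (grey) and the 7 glucocorticoid-induced genes (coloured). Dotted lines mark 1.5-fold, vertical lines the quartiles of the signal range, and 24 genes lie outside the vertical axis. The spread of grey points narrows as signal rises, Klf9, Fkbp5 and Ddit4 sit at the edge of the cloud, and Zbtb16 lies in its widest part.

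The promoters of Klf9, Fkbp5, Tsc22d3 and Ddit4 are shown because these genes, with Zbtb16, stood furthest from 0 relative to the single-spot SD, and Ddit4 is the one that went the other way. The sequences are those of RefSeq on assembly GRCr8, which is not the assembly of the array design, and each is the 250 bases before an annotated transcript start, 5′ to 3′ on the gene's strand. The windows are chr1:230126396-230126645 (+ strand) for Klf9, chr20:6543556-6543805 (- strand) for Fkbp5, chrX:109065431-109065680 (- strand) for Tsc22d3 and chr20:28437038-28437287 (- strand) for Ddit4. Capitals mark a match to ACANNNTGT, the core of the receptor's inverted repeat, which reads the same on both strands. Of the annotated Tsc22d3 starts, only the one shown has such a match in its window. Which start gives the transcript that the probe measures was not determined.
Klf9: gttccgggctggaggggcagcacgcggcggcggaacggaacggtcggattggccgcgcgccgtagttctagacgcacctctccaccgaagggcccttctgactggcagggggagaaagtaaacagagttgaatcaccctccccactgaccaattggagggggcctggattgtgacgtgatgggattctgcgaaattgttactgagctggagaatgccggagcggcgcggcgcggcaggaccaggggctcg
Fkbp5: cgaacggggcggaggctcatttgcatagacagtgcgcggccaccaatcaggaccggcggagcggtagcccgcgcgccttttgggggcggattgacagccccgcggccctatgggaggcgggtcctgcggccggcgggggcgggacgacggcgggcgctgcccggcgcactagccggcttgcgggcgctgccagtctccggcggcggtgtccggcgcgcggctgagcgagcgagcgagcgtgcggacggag
Tsc22d3: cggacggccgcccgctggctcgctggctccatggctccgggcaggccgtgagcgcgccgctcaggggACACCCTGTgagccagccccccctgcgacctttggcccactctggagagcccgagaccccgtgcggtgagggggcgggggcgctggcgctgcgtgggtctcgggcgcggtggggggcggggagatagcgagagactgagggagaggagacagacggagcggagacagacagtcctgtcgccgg
Ddit4: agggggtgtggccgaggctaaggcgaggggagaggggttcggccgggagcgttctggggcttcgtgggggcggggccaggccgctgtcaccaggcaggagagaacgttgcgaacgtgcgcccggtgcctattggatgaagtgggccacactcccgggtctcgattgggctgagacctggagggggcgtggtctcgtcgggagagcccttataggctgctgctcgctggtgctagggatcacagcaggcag

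Of the 7 genes, 6 were matched to promoter windows, 10 in all since Sgk1 and Tsc22d3 have 3 annotated starts each. The hexamer AGAACA or its complement TGTTCT was in none of the 10 windows, against 17.5% of all 33469 rat windows. The core ACANNNTGT was in 1 of the 10, the GC-rich Tsc22d3 window above at position -183 from the start, against 5.81% of all windows. Both motifs overlap in a full receptor site. The windows of Klf9, Fkbp5 and Ddit4 held neither motif, and were 63.6%, 76.0% and 67.6% G and C, against a median of 51.2% over all windows. Those letters say nothing of sites elsewhere, and receptor sites of such genes are known to lie far from the start.

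A search for TATAAA or its complement TTTATA, added after the sequences had been seen, matched windows of 3 of the 6 genes, Errfi1, Sgk1 and Tsc22d3, against 14.1% of all genes with a window. The 60 bases before the start are shown for those windows, with the match in capitals, because it falls there in each. They lie at chr5:166606781-166606840 (+ strand) for Errfi1, chr1:24804832-24804891 and chr1:24807232-24807291 (- strand) for the downstream and upstream Sgk1 start, and chrX:109010035-109010094 (- strand) for Tsc22d3.
Errfi1: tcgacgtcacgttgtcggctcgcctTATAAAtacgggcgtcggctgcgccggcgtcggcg
Sgk1, downstream start: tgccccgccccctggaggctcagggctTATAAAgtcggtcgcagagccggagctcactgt
Sgk1, upstream start: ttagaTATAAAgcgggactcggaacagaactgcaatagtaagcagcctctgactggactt
Tsc22d3: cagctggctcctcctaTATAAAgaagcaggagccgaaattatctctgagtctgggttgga
The matches begin at positions -35, -33, -55 and -44, counting back from -1, the base before the start. The genes with a match were at 0.06, 0.05 and 0.15, and Klf9, Fkbp5 and Ddit4 had none. Sgk1 and Tsc22d3, with 3 windows each, had more places for a match than the other genes and matched in only some windows. With the search added after the sequences were seen, a match cannot be tied to the size of a difference. This is a description of 6 genes.

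The receptor side of the pathway was measured by a list of receptors, steroid enzymes, chaperones and co-regulators. Of its 12 genes 11 were measured, 4 higher and 7 lower in the female pool, where 55.5% of all measured genes were higher. None was past 1.5-fold, against 2.3% of all measured genes, and the median was -0.03. Its sign depends on the scaling, since centring on spike-in controls, which moves every gene up by a common step, gave a median of 0.0545. Nr3c1, the glucocorticoid receptor gene, read 11.3 in the female pool and 12.3 in the male pool as a mean over 3 probes, a difference of -0.12. Those probes differed, at 0.03, -0.10 and -0.30, the last in the dimmest quartile of the signal range. Nr3c2, the mineralocorticoid receptor gene, which binds corticosterone with high affinity, read 4.42 in the female pool and 3.58 in the male pool, 1.23-fold higher. Its brighter probe differed by 0.11 and its dimmer one, at 1.02 in the female and 0.726 in the male pool, by 0.49.

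The enzymes that make and remove active glucocorticoid inside cells stood on opposite sides of 0. Hsd11b2, which inactivates corticosterone and in the NTS marks neurons that sense aldosterone, read 27.7 in the female pool against 21.0 in the male pool, 1.32-fold higher and the furthest from 0 of the 11. Hsd11b1, which regenerates corticosterone, read 11.4 in the female pool and 13.1 in the male pool, a difference of -0.19. The chaperones differed least. Hsp90aa1 and Hsp90ab1, the Hsp90 genes, were both at -0.05, as was the co-chaperone gene Stip1, and Fkbp4 and Ptges3, which join the mature receptor complex, were both at -0.03. Fkbp4, whose protein FKBP52 opposes FKBP51 in that complex, read 147 in the female pool and 149 in the male pool. Of the co-regulator genes, Ncor1 was at 0.15 and Ncoa2 at 0.11, and Ncoa1 had no named probe.

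Further genes known to respond to glucocorticoids in some tissue went the same way more often than not. Of 35 listed, 33 were measured, and 24 were higher and 9 lower in the female pool, where 55.5% of all measured genes were higher. The median of the 33 was 0.15 against 0.02 for all genes. On the female side 8 were past 1.2-fold (7.31% of all measured genes) and on the male side 2 (4.49%). Past 1.5-fold on the female side was 1 gene, against 1.5% of all measured genes. This was Cdkn1c, the gene of the cell cycle inhibitor p57, at 64.3 in the female pool and 39.1 in the male pool. It was 1.64-fold higher, with its probes at 0.82 and 0.62. These genes were listed with earlier results of the same arrays known, so their count is not independent of what was seen before.

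The further genes of that list given here were chosen after their values were seen. Sult1a1, a phenol sulfotransferase gene, read 72.0 in the female pool against 54.5 in the male pool, 1.32-fold higher. The metallothionein genes Mt1 and Mt2A, which bind zinc and copper, read 277 and 716 in the female pool against 230 and 618 in the male pool, differences of 0.27 and 0.21. Klf15, a Krüppel-like factor gene of amino acid metabolism, differed by 0.24, the thioredoxin inhibitor gene Txnip by 0.29 and the clock gene Per1 by 0.25, with both Per1 probes higher in the female pool. Nfkbia, the gene of the NF-κB inhibitor IκBα, and the glutamine synthetase gene Glul were at 0.02, Sdc4, a bright gene of a heparan sulfate proteoglycan, was at 0.08, and the repressor gene Bcl6 was at 0.17.

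Other genes of that list were lower in the female pool. Gpd1, the gene of cytosolic glycerol-3-phosphate dehydrogenase, read 273 in the female pool and 394 in the male pool, 1.44-fold lower in the female pool. The dim Pdk4, a kinase gene that slows pyruvate oxidation, read 1.00 in the female and 1.40 in the male pool. The phosphatase gene Dusp1, also dim, was at -0.23 and Arrdc2 at -0.26. Tat and Trim63 were not well above background on both arrays.

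**Figure D4:**
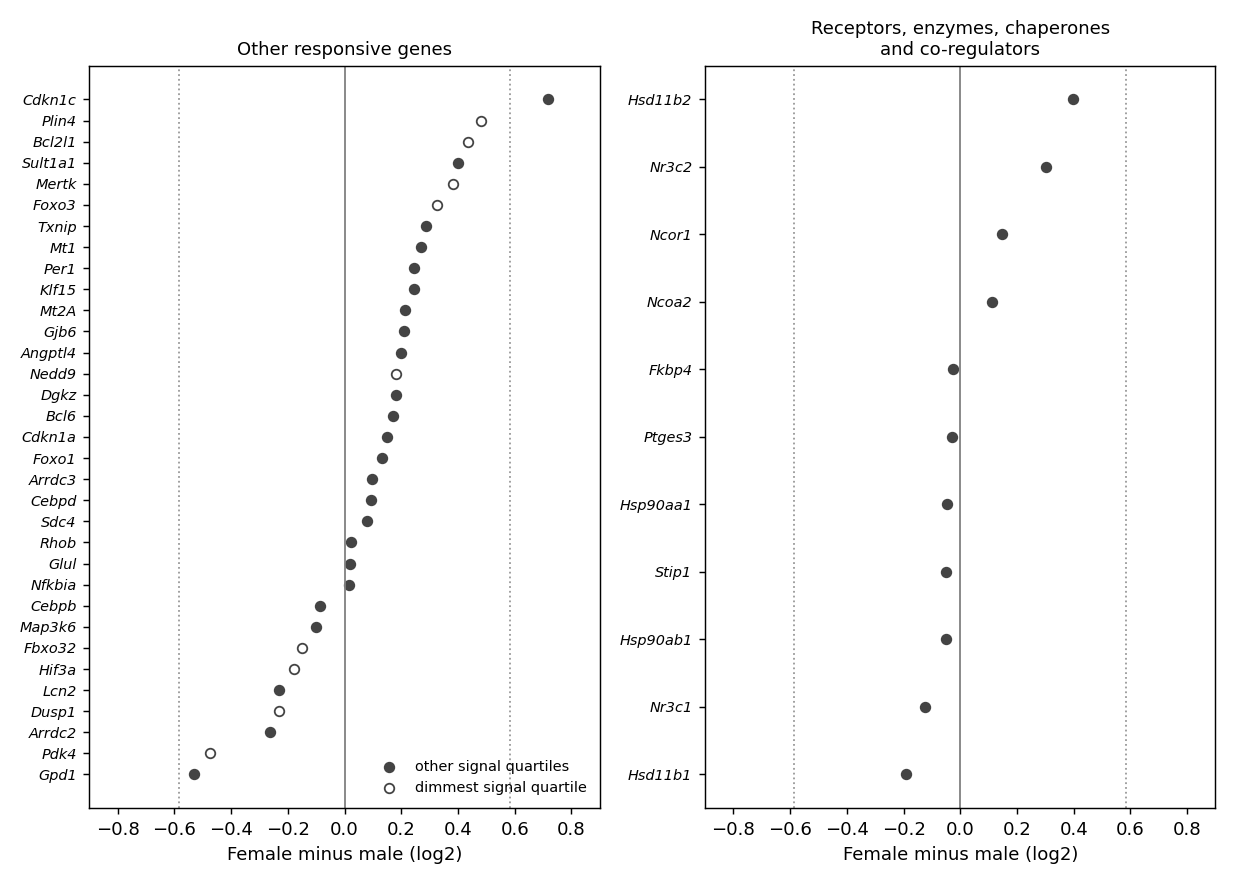
Difference, female minus male on the log2 scale, of 33 further glucocorticoid-responsive genes (left) and 11 genes of receptors, enzymes, chaperones and co-regulators (right), 1 point per gene. Open circles are genes in the dimmest quartile of the signal range and dotted lines mark 1.5-fold. On the left 24 genes lie above 0 and Cdkn1c lies past the line at 0.72, and on the right the chaperones lie close to 0 and Hsd11b2 is furthest out at 0.40.

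Relatives of the 7 genes lay close to 0. Of 15 relatives 13 were measured, from -0.17 to 0.11, with a median of -0.04. Fkbp5, Zbtb16, Klf9, Tsc22d3 and Ddit4 lay outside that range of gene means. Single probes of the relatives spread wider. A Tsc22d1 probe was at 0.17 and a Tsc22d4 probe at 0.20, both above the single Tsc22d3 probe at 0.15. A Klf6 probe was at -0.24. The other probes of those relatives lay closer to 0. None of the 13 relatives was past 1.2-fold, but only 11.8% of all measured genes were, in either direction. In the FKBP family, Fkbp1a was at -0.09 and Fkbp8 at -0.04 beside Fkbp5 at 0.23. In the TSC22 family, Tsc22d1, Tsc22d2 and Tsc22d4 were at 0.07, -0.07 and 0.07 beside Tsc22d3 at 0.15. Among the Krüppel-like factors, Klf13, a close relative of Klf9, was at -0.14, Klf6 at -0.16, Klf4 at -0.04 and Klf10 at 0.11. Sgk2, dim at 2.84 in the female and 3.19 in the male pool, was at -0.17, and the Zbtb relatives Zbtb7a and Zbtb20 were at 0.04 and 0.07. Sgk3 and Ddit4l had no named probe.

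Genes of the proteins on which the members act lay on both sides of 0. Of 17 listed genes of partners and substrates 15 were measured. Of these, 11 were higher and 4 lower in the female pool, where 55.5% of all measured genes were higher. The median of the 15 was 0.05 and none was past 1.5-fold, against 2.3% of all measured genes. The furthest from 0 were the receptor kinase genes Erbb3 at -0.42 and Erbb4 at 0.30, both in the dimmest quartile of the signal range, where 14.8% and 27.8% of genes were at least as far from 0. The brightest were Ndrg2, of the family that SGK1 phosphorylates, at 0.03, and Rptor, an mTORC1 subunit gene, at -0.04. On the REDD1 route, Tsc1 was at 0.09, Tsc2 at 0.06 and Mtor at 0.14. Egfr, whose product MIG6 restrains, read 15.9 in the female pool and 15.5 in the male pool.

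Genes induced by hypoxia or cell stress, as Ddit4 also is, were evenly split. Of 15 listed 14 were measured, from -0.26 to 0.11, with a median of -0.00499. They lay 7 on each side of 0, and of all measured genes 55.5% were higher in the female pool. None of the 14 was past 1.2-fold, but only 11.8% of all measured genes were, in either direction. The brightest were Ddit3, which encodes the stress factor CHOP, at -0.17, and Bnip3, a hypoxia-induced mitophagy receptor gene, at -0.07. Ddit4 at -0.29 was lower than all 14.

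Markers of other cell types also differed between the arrays. Of all measured genes, 1.5% were at least 1.5-fold higher in the female pool and 0.804% at least 1.5-fold lower, and 55.5% were higher by any size. All 12 choroid plexus markers were at least 1.5-fold higher in the female pool, with a median of 2.33. Their summed scaled signal was 9816 in the female pool against 787 in the male pool. The furthest apart were Kcnj13 at 4.56, Sostdc1 at 4.23, Ttr at 3.92 and Prlr at 2.96, and all 12 were well above background in both pools. The male signals of Kcnj13 at 0.839, Clic6 at 0.785 and Prlr at 0.741 were below the 0.863 of Zbtb16. Dim signal limits the size of those differences too. All 5 erythrocyte markers were at least 1.5-fold lower in the female pool, with a summed signal of 3467 there and 5396 in the male pool, with Hba-a1 at -0.63, Hbb at -0.75, Alas2 at -0.73, Ahsp at -0.92 and Slc4a1 at -0.93. All 9 oligodendrocyte markers were lower in the female pool, with a median of -0.22 and sums of 1866 in the female and 2220 in the male pool, and 7 of 8 endothelial markers were lower, with a median of -0.16 and sums of 157 in the female and 186 in the male pool. Among these were Mbp at -0.08 for oligodendrocytes, and the brightest endothelial markers Kdr at -0.35 and Cldn5 at -0.27. Astrocyte markers had a median of -0.05, with Aldoc at -0.03 and Aqp4 at -0.11, microglia markers of -0.07, with Cx3cr1 at -0.17 and Aif1 at -0.15, and neuron markers of -0.06, with Uchl1 at -0.04, Snap25 at -0.07 and Nefl at -0.44. With 1 array per sex, any gene higher in the female pool, such as Zbtb16 or Klf9, is higher on the array with more choroid plexus signal. Any gene higher in the male pool, such as Ddit4 or Gpd1, is higher on the array with more erythrocyte and oligodendrocyte signal. Such a match is fixed by the design. The part of these cell types in the differences was not tested.

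**Figure D5:**
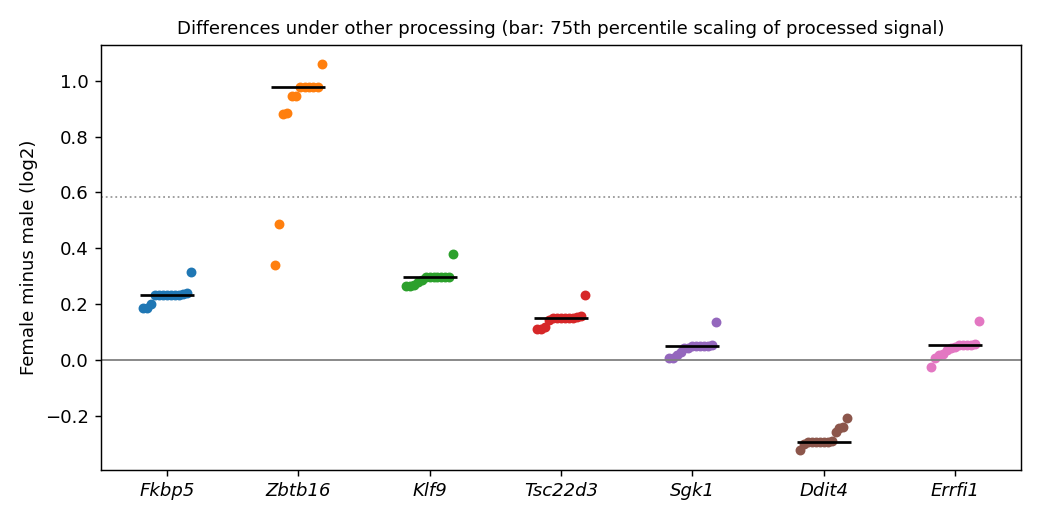
Difference, female minus male on the log2 scale, of each of the 7 genes under the other ways of processing (coloured points, 12 for Zbtb16 and 13 for each other gene), beside the value given in the text (black bar). The dotted line marks 1.5-fold. Klf9, Fkbp5 and Tsc22d3 stay above 0 and Ddit4 below it, and Zbtb16 has 2 points under the line, at 0.341 and 0.488.

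Across these ways of processing, which include other background corrections, scalings, filters and summaries, Klf9 ranged from 0.264 to 0.38, Fkbp5 from 0.185 to 0.316, Tsc22d3 from 0.11 to 0.234 and Ddit4 from -0.323 to -0.208. Sgk1 ranged from 0.00655 to 0.135. Errfi1 ranged from -0.0243 to 0.139 and turned with its brightest probe alone. For genes with a single probe, settings that change only the choice or summary of probes, or keep flagged spots, repeat the value in the text. For spots within 10 rows and columns of each member probe on the slide, the median difference lay between -0.0100 and 0.0332.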

How the data were processed

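RNA of the NTS of 5 female and 5 male SHR, pooled by sex, was hybridised to 1-colour Agilent rat arrays, 1 per sex. The deposited scanner files hold spot intensity on a linear scale, per the file headers from Feature Extraction 11.5.1.1 (the submitters' processing notes name 9.1), and the processed signal is background-corrected. The authors' deposited value table is that intensity divided by 1 constant per array (23.4 female, 22.8 male), with column medians of 19.6 for the female and 19.4 for the male array. It is linear and not centred on the median. The constants stand in nearly the same ratio as the 75th percentiles of the processed signal, 2344.5 in the female and 2277.28 in the male array. Used as a setting, the table therefore nearly repeats the scaling of the report.

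Control spots and spots with an outlier flag on either array (363 flagged in the female, 284 in the male) were left out. The value was log2 processed signal minus the array's 75th percentile over spots outside the controls. Spots of a probe were averaged. A probe counted as measured where at least 50% of its spots were well above background in both pools, and the value of a gene was the mean of its measured probes. Of 45598 probes, 21109 were named through unversioned transcript accessions in a RefSeq table of GRCr8, whose assembly differs from the array design's, so it served for names and promoters only. There was no test, with 1 array per sex; folds of 1.2, 1.5 and 2 were counted beside all genes. The members, gene lists and settings were chosen with earlier results of these data known. Named were all members, every measured gene of the receptor and relatives lists, and from each other list those past 1.5-fold, at most 4 by size, or else the 2 brightest; other list genes named in the text were chosen after their values were seen, and some list genes are not reported here. The code was tested on simulated data. The number of arrays limits the precision. Python 3.11.15, numpy 2.4.6, pandas 2.3.3, R 4.3.3 and limma 3.58.1 were used.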

Additional observations from a re-analysis of the deposited data

How the results depend on the processing

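No paired analysis was possible because females and males are a single array each, with no test. Local centring by position on the slide was chosen after seeing the data, and the other settings were planned. The 12 settings that kept Zbtb16 all had it higher in the female pool, but several could not change its value. With a single spot, all probes, the median over probes, the brightest probe and kept outlier spots each returned 0.977. The authors' value table, at 0.979, nearly repeats the scaling of the report. The number of members at least 1.5-fold higher in the female pool, 1 in the report, was 0 with normexp on the median spot signal, 0 with no background correction and 0 with probes above the array median, where Zbtb16 has no value by construction. It was 2 at a 1.2-fold threshold and 0 at a 2-fold threshold. In the male pool the count of 0 became 1 at 1.2-fold. For the other glucocorticoid-responsive genes, 1 was at least 1.5-fold higher in the female pool, against 2 with all probes, 8 at 1.2-fold and 0 at 2-fold, and in the male pool 0 became 1 with all probes and 2 at 1.2-fold. For receptors and chaperones the count of 0 in the female pool became 2 at 1.2-fold. Centring on spike-in controls moves every gene by a common step, so that 80.5% of all measured genes were higher in the female pool, against 55.5% in the report. With normexp the share of all genes past 1.5-fold was 0.521%, against 2.3% in the report. Dim signal limits Zbtb16, whose male spot stood 1.37 times above its surroundings.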
